A study of Mus musculus with 31 samples.

Results

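The Hippo effectors YAP and TAZ, their TEAD DNA-binding partners and 4 commonly used YAP target genes were followed in kidneys of cystic and wild-type mice. The 10 genes were chosen by name from the gene symbols in the count tables, although earlier results of these data were known. They are the coactivator genes Yap1 and Wwtr1 (which encodes TAZ), the partners Tead1, Tead2, Tead3 and Tead4, and the targets Ctgf, Cyr61, Ankrd1 and Amotl2. All 10 were among the 23509 genes listed, and all 10 were among the 15185 genes with enough counts to test.

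In the Hippo pathway a cascade of kinases, MST (Stk3, Stk4) and LATS (Lats1, Lats2), phosphorylates YAP and TAZ and keeps them out of the nucleus. Unphosphorylated YAP and TAZ enter the nucleus, where they bind TEAD proteins and switch on genes for growth, matrix and cytoskeleton. YAP activity is set mainly by the location and phosphorylation of the protein, which mRNA counts do not measure. The pathway has been studied in cystic kidney disease because tubule cells sense stretch and cell contact through it, and because nuclear YAP and TAZ have been described in cyst epithelium.

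RNA was sequenced from 1 whole kidney sample per mouse in 31 mice. The cystic animals were of the strain labelled Pcy/CD1, a slowly progressing model in which the pcy allele produces renal cysts in the CD1 background. The labels do not give zygosity. From 5 weeks of age, 12 of them received PBS under the skin and 14 received RGLS4326 at 25 mg kg−1 once every 4 weeks, and kidneys were taken at 30 weeks. RGLS4326 is a short, chemically modified oligonucleotide that pairs with the microRNA miR-17 and blocks it. The 5 remaining mice were untreated, age-matched male wild types of the CD1 strain. The study gives the dosed Pcy/CD1 mice as male too. Because the wild types were not injected, genotype and injection cannot be told apart between them and the dosed groups. One label and the study's account of this mouse model give PBS as weekly, and another label reads as monthly. If weekly, the PBS mice received more injections than the RGLS4326 mice, a difference that cannot be told apart from the drug.

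Between 14892524 and 27459962 counts per mouse fell on genes (median 19961466). RGLS4326 mouse 9 stood apart from its group. On an axis through all genes tested with the wild-type mean at 0 and the PBS mean at 1, it lay at 0.113, whereas the other RGLS4326 mice lay at 0.575 to 1.13. The library names fall into 3 index series of 4, 4 and 4 PBS, 4, 5 and 5 RGLS4326 and 2, 2 and 1 wild-type mice, read only from the numbers in those names, which start again within each group. No label says what the series mark, so values within a series are given beside the pooled ones without naming a batch. The labels name each sample only by group and number, so p-values measure the spread between these samples.

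TEAD proteins bind the letters GGAATG, read CATTCC on the other strand. Both strands of RefSeq promoter windows on GRCm38 (250 bases before to 50 bases after the start site) were searched for them, and 14.7% of all 32851 windows, or 16.6% of gene symbols, held a match. An entry existed for 7 of the 10 genes, and 6 of those 7 held a match (Yap1, Wwtr1, Tead3, Cyr61, Ankrd1 and Amotl2, but not Tead2). Windows for Tead1, Tead4 and Ctgf were not in the table. Matches in the target promoters are shown 5′ to 3′ on the gene's strand, with the motif in capitals, because these are the genes through which YAP activity is usually read.
Cyr61, chr3:145650072-145650099 (minus strand): gcgccaaccaaCATTCCtgagatgtttg
Ankrd1, chr19:36120038-36120065 (minus strand): tcactgccaaaGGAATGaccctctcaca
Ankrd1, chr19:36119951-36119978 (minus strand): acactaagtctGGAATGaaaattcacct
Amotl2, chr9:102717728-102717755 (plus strand): tgaaactctcaCATTCCtggcatagcag
Yap1 and Wwtr1, the coactivator genes themselves, held the letters once each.
Yap1, chr9:8004721-8004748 (minus strand): gggagtctgcaGGAATGtagcgacgcgc
Wwtr1, chr3:57576030-57576057 (minus strand): gtaaactcaaaGGAATGcagataggcgc
The motif began 103 bases upstream of the start site in Cyr61, 210 and 123 bases upstream in Ankrd1, and 65 bases upstream in Amotl2. These distances are from RefSeq's start sites. The gene spans printed with the values are GENCODE's and begin further upstream for Ankrd1 and Amotl2, so that their matches fall inside those spans. Such a match describes the letters in the window and is no evidence of binding.

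RGLS4326 acts on miR-17, whose mature strand is shown with its seed (bases 2 to 8) in capitals.
mmu-miR-17-5p, chr14:115043684-115043706 (plus strand): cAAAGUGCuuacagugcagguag
Sites complementary to the seed, GCACTTT, were searched in the longest annotated 3′UTR of each gene. Of the 10 genes, 2 (20%) had a match, against 14% of the 13848 genes tested that have a 3′UTR. Both were matches of 8 letters, GCACTTTA. The Wwtr1 site lies at chr3:57457189-57457195 in exon 7 of 7, and the Tead1 site at chr7:112899969-112899975 in exon 14 of 14, each within the 3′UTR. They are shown with the 7 seed-pairing bases in capitals.
Wwtr1: ggtcagggtGCACTTTactgggaag
Tead1: gcctcagtgGCACTTTacacatata

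PBS-treated cystic kidneys were compared with wild type to ask how the pathway's transcripts stand in cystic disease. All 4 YAP targets were higher in the cystic kidneys, from 1.72-fold for Amotl2 to 8.66-fold for Ankrd1, and 2 of the 4 TEAD genes were higher, Tead2 by 4.78-fold and Tead3 by 1.43-fold. Wwtr1 and Tead1 were lower, and Yap1 and Tead4 did not pass the test. Values are CPM, the gene's count relative to the TMM-scaled library, and a gene is called when its adjusted p is under 0.05 in the quasi-likelihood test of edgeR, adjusted by the Benjamini-Hochberg procedure over all genes tested. In this comparison 8 of the 10 genes were called, against 74.3% of all genes tested (37.7% higher and 36.6% lower). The share called among the 10 genes was therefore close to that background. The groups did not overlap for 7 of the 10, against 42.2% of all genes. With a required size of 0.5 on the log2 scale 7 of the 10 were called, against 42.4% of all genes. The median log2 fold change was 0.65 for the 10 genes and 0.010 for all genes.

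Yap1, at 7931999 to 8004596 of chromosome 9 (GRCm38, minus strand), was close in level across the groups. Wild-type mice 1 to 5 read 96.5, 103, 83.0, 83.7 and 98.5 CPM, PBS mice ranged from 89.0 to 99.1 (median 94.0) and RGLS4326 mice from 87.2 to 101 (median 93.8). Every mouse of both cystic groups lay inside the wild-type range, which was the widest of the 3. The log2 fold change in PBS was 0.019 (SE 0.042, adjusted p = 0.688), with a 95% interval from −0.063 to 0.10. With RGLS4326 against PBS it was −0.0022, with an interval from −0.062 to 0.058, so that changes of the size seen in the targets lay outside both intervals. Within index series 2 alone Yap1 was called higher in PBS than in wild type (0.20, adjusted p = 0.0368), where 45.5% of all genes were called, against −0.10 and −0.042, neither called, in the other two. Yap1 shares 116 exonic bases with Gm20416 on the other strand, a gene the count tables do not list.

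Wwtr1 encodes TAZ, the paralogue of YAP, and lies on the minus strand of chromosome 3 from 57455649 to 57575910. The 5 wild-type mice read 87.5, 92.5, 93.9, 105 and 81.6 CPM, and PBS mice read 55.6 to 71.5 (median 63.5). Every PBS mouse lay below every wild-type mouse, with a log2 fold change of −0.52 (SE 0.072, adjusted p = 2.35e-07). Within the index series it was −0.47, −0.67 and −0.29, and the last of these, with a single wild-type mouse, was not called (adjusted p = 0.16). RGLS4326 mice read 52.6 to 88.3 CPM (median 71.1), with mouse 9 highest.

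The TEAD genes did not move together. Tead2 (chromosome 7, plus strand, 45215753 to 45233644), a TEAD known from the early embryo, was scarce in wild type at 1.95, 2.61, 3.31, 2.72 and 1.69 CPM. PBS mice read 5.88 to 20.4 CPM (median 10.5), all above wild type. Its log2 fold change was 2.26 (SE 0.286, adjusted p = 7.43e-08) and ranged from 1.82 to 3.04 within the index series. Between 28 and 56 reads per wild-type mouse stand behind these values, against 118 to 504 in PBS. Tead2 shares 13 exonic bases with Cd37, a leukocyte gene on the opposite strand, which itself read 1.48 to 2.47 CPM in wild type and 4.98 to 9.87 in PBS. The library kit keeps strand, but the strand setting of the counting was not given in the sources used here.

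Tead3 (chromosome 17, minus strand, 28331671 to 28350817) read 24.7, 23.6, 24.6, 21.2 and 20.8 CPM in wild type and 28.7 to 38.7 CPM (median 31.7) in PBS, again without overlap. Its log2 fold change was 0.52 (SE 0.080, adjusted p = 1.31e-06). Tead1 (chromosome 7, plus strand, 112679318 to 112906807) is the most abundant TEAD in these kidneys and went the other way. Wild type read 96.6, 102, 118, 126 and 120 CPM, and PBS 82.4 to 116 CPM (median 94.6), with overlapping ranges. The log2 fold change of −0.24 (SE 0.090, adjusted p = 0.0196) was lost without wild-type mouse 4 (−0.19, adjusted p = 0.0759), without wild-type mouse 5 (−0.21, adjusted p = 0.0529), and with wild-type mice 3 and 4 counted as 1 (−0.21, adjusted p = 0.0585). Within the index series it was −0.018, −0.39 (adjusted p = 0.0297) and −0.29 (adjusted p = 0.167), called only in the second. Tead4 (chromosome 6, minus strand, 128224288 to 128300823) stood at 0.828 to 2.01 CPM in wild type and 0.83 to 2.02 in PBS, on 14 to 50 reads per mouse in these groups. Its log2 fold change of −0.12 had an interval from −0.49 to 0.24, so a moderate change in Tead4 was not detectable at this depth. Leaving out single mice moved it between −0.28 (without wild-type mouse 3) and −0.024 (without wild-type mouse 1).

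The 4 targets are induced by YAP and TAZ with TEAD in many cell types. Ctgf (named Ccn2 in the annotation, chromosome 10, plus strand, 24595442 to 24598683) encodes a secreted matricellular protein linked to fibrosis. It read 46.9, 37.1, 56.2, 57.2 and 56.3 CPM in wild type and 70.2 to 213 CPM (median 147) in PBS. All PBS mice lay above all wild types, by a log2 fold change of 1.55 (SE 0.219, adjusted p = 3.79e-07). Ctgf shares 665 exonic bases with Gm15270 on the other strand, which the tables do not list.

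Cyr61 (Ccn1, chromosome 3, minus strand, 145646976 to 145649981), a related secreted protein and an immediate-early gene, read 18.1, 18.7, 18.3, 19.1 and 43.6 CPM in wild type. PBS mice read 47.3 to 210 CPM (median 133). Wild-type mouse 5 stood well above the other 4 but still below every PBS mouse. On the log2 scale the change was 2.37 (SE 0.436, adjusted p = 1.72e-05). Within the index series it was 2.77, 2.58 and 1.59, and the last, with mouse 5 as its only wild type, was not called (adjusted p = 0.0752).

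Ankrd1 (chromosome 19, minus strand, 36111961 to 36120099) encodes an ankyrin repeat protein of the nucleus and sarcomere that is induced by stretch. It moved most, from 1.59, 2.73, 1.36, 1.63 and 2.23 CPM in wild type to 7.52 to 28.7 CPM (median 16.6) in PBS. The groups did not overlap and differed by 3.12 on the log2 scale (SE 0.451, adjusted p = 5.24e-07), on 23 to 46 reads per wild-type mouse. Ankrd1 is also a gene of striated muscle, whose 5 markers (Ckm, Acta1, Tnnt3, Myh7 and Tnnt2) together reached no more than 1.45 CPM in any mouse.

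Amotl2 (chromosome 9, plus strand, 102716672 to 102733418) encodes an angiomotin-like junction protein that binds YAP and holds it in the cytoplasm. Wild type read 88.5, 90.2, 79.9, 79.3 and 81.5 CPM, and PBS 119 to 168 CPM (median 147). This was the target with the narrowest spread and no overlap, and its log2 fold change was 0.78 (SE 0.079, adjusted p = 4.44e-09). Tead2, Tead3, Ctgf, Ankrd1 and Amotl2 were called in all 3 index series taken alone.

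**Figure D1:**
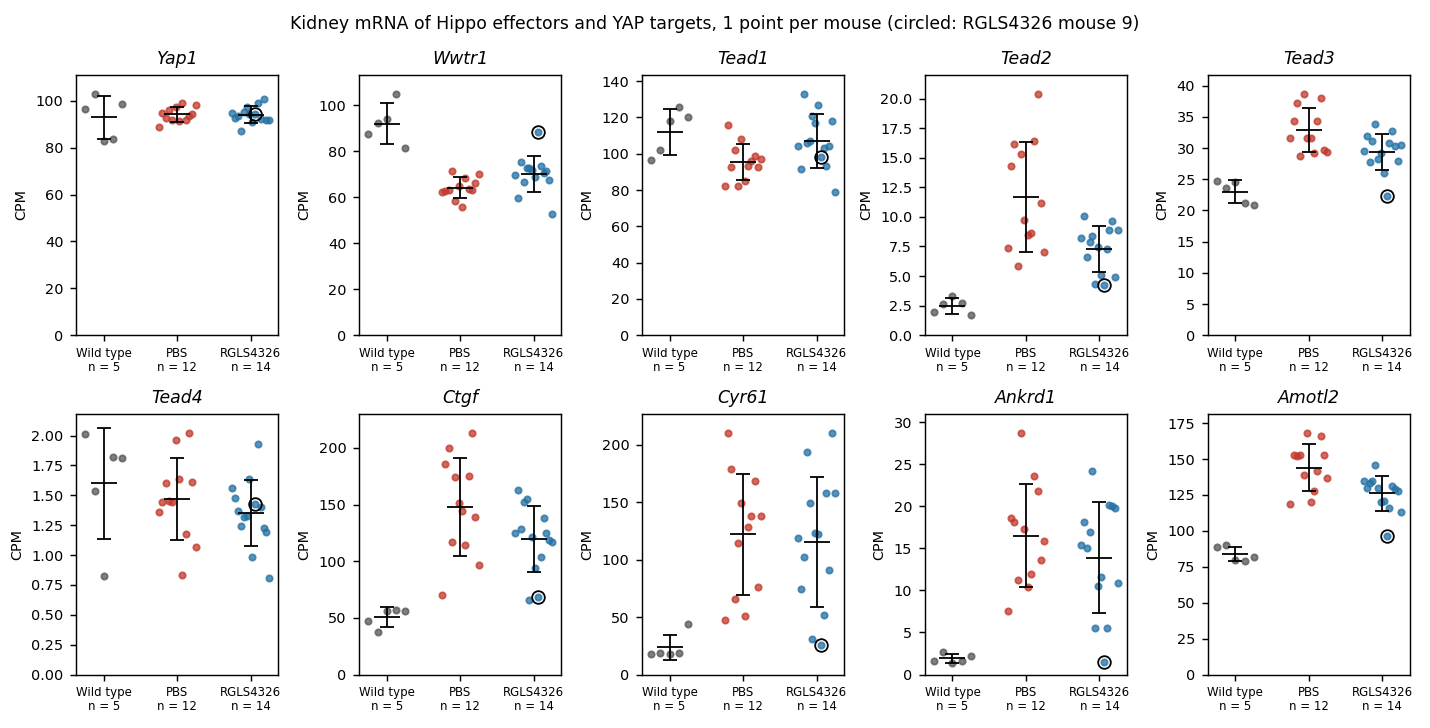
CPM of each of the 10 genes (vertical axis, from 0) in 5 wild-type, 12 PBS and 14 RGLS4326 kidneys, 1 point per mouse, with the mean and SD as bars and RGLS4326 mouse 9 circled. The PBS points of Tead2, Tead3 and the 4 targets lie wholly above wild type, those of Wwtr1 wholly below, and mouse 9 lies at 1.48 CPM for Ankrd1, within the wild-type range.

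RGLS4326 was compared with PBS to ask whether blocking miR-17 moved these transcripts. Treated kidneys had less Tead2 (0.62-fold) and less Amotl2 (0.873-fold), and the other 8 genes did not pass the test. The 2 of 10 called stand against 15.8% of all genes tested (9.15% higher and 6.66% lower), and no gene of the 15185 had groups without overlap (0%). With a required size of 0.5 on the log2 scale, Tead2 alone was called, against 2.15% of all genes. The median log2 fold change was −0.14 for the 10 genes and −0.0043 for all genes.

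Tead2 in RGLS4326 mice read 4.24 to 10.1 CPM (median 7.66), against 5.88 to 20.4 (median 10.5) in PBS. RGLS4326 mice 9, 6, 13 and 8 lay below the lowest PBS mouse (4.24, 4.37, 4.93 and 5.10 CPM) and the other 10 within the PBS range. All lay above the highest wild type at 3.31 CPM. The log2 fold change was −0.69 (SE 0.176, adjusted p = 0.017), and −0.64 (adjusted p = 0.0274) without mouse 9. Within the index series it was −0.42, −0.83 and −0.79, none called after adjustment (adjusted p = 1, 0.237 and 0.203), as was the case for every gene, since 0 of the 15222, 15188 and 15457 genes tested in the respective series passed. Without adjustment, 280, 2981 and 3045 genes had a p under 0.05 in those series. Cd37 on the opposite strand read 2.40 to 9.86 CPM in RGLS4326 mice.

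Amotl2 read 96.6 to 146 CPM (median 129) in RGLS4326 mice, between wild type and PBS. Mouse 9 was lowest, and the next mouse read 113 CPM, above the highest wild type at 90.2 CPM. The log2 fold change was −0.20 (SE 0.056, adjusted p = 0.0265) and −0.17 (adjusted p = 0.0402) without mouse 9. It was no longer called without PBS mouse 10 (−0.18, adjusted p = 0.0604), and within the index series it was −0.12, −0.18 and −0.28, none called (adjusted p = 1, 0.378 and 0.179).

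For the secreted targets the groups shared most of their range. Ctgf read 65.9 to 163 CPM (median 123) with RGLS4326, a log2 fold change of −0.31 (SE 0.147, adjusted p = 0.124) with an interval from −0.60 to −0.021. It was called only without PBS mouse 1, the lowest PBS mouse (−0.37, adjusted p = 0.0484). Cyr61 read 26 to 210 CPM (median 121), with mouse 9 lowest and mouse 6 next at 31.1 CPM, both below PBS. Its log2 fold change of −0.085 had an interval from −0.62 to 0.45, and it was −0.00033 without mouse 9. Ankrd1 read 1.48 to 24.2 CPM (median 15.2), with a log2 fold change of −0.25 (interval −0.74 to 0.25, adjusted p = 0.491). It was −0.15 without mouse 9 (adjusted p = 0.638) and likewise without PBS mouse 5 (adjusted p = 0.717). For Cyr61 and Ankrd1 the SD within each group exceeded the difference between the group means, so that changes inside these intervals were not detectable.

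Tead3 with RGLS4326 read 22.4 to 33.8 CPM (median 29.9) and just missed the threshold, with a log2 fold change of −0.16 (SE 0.057, adjusted p = 0.0512). It was called in DESeq2 (adjusted p = 0.0411), with a minimum mean of 1 CPM (adjusted p = 0.0452), and without any 1 of PBS mice 1, 4, 7, 8 and 12 or RGLS4326 mice 2, 4, 5 and 11 (−0.16 to −0.18, adjusted p from 0.027 to 0.05). Without mouse 9 it was −0.13 (adjusted p = 0.0846). Tead4 read 0.807 to 1.93 CPM, a log2 fold change of −0.12 (adjusted p = 0.531), which was −0.071 without PBS mouse 10.

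The 2 genes with a miR-17 seed match were the only members with a fitted value above 0 for RGLS4326 against PBS, neither of them called. Wwtr1 had a log2 fold change of 0.13 (SE 0.054, adjusted p = 0.0868, interval 0.023 to 0.23). Tead1, at 79.0 to 133 CPM (median 105) with RGLS4326, had one of 0.17 (SE 0.067, adjusted p = 0.0755, interval 0.036 to 0.30). Both were called without RGLS4326 mouse 14, the lowest treated mouse for each (0.16, adjusted p = 0.0299 and 0.20, adjusted p = 0.0326), and without RGLS4326 mouse 2 (0.15, adjusted p = 0.0437 and 0.18, adjusted p = 0.044). Without mouse 9 neither was (adjusted p = 0.153 and 0.0794). Within the index series Wwtr1 was 0.065, 0.28 and 0.033, and Tead1 0.15, 0.30 and 0.048. In wild type both genes stood higher than in PBS (above), so these fitted values also point towards wild type. Of the 10 genes of the pathway and target lists below that hold a seed match, 9 could be tested, of which 4 had a value above 0 and 5 one below 0, from −0.27 for Ajuba to 0.33 for Mob1b. Taok1 was called higher (0.17, adjusted p = 0.0421) and Ajuba lower (adjusted p = 0.0392). Taok1 lost its call in 14 and Ajuba in 11 of the 31 fits that left out a mouse, mouse 9 among them for both. These 3 genes are named here after their values were seen. The count of called members over the 31 fits that each left out a mouse ran from 1 (without PBS mouse 10) to 5 (without RGLS4326 mouse 2), with 4 without PBS mouse 1 or RGLS4326 mouse 14. The share of all genes called moved too, from 15.8% with all mice to 4.08% without PBS mouse 10, 26.4% without RGLS4326 mouse 2, 19.9% without PBS mouse 1 and 16.8% without RGLS4326 mouse 14.

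**Figure D2:**
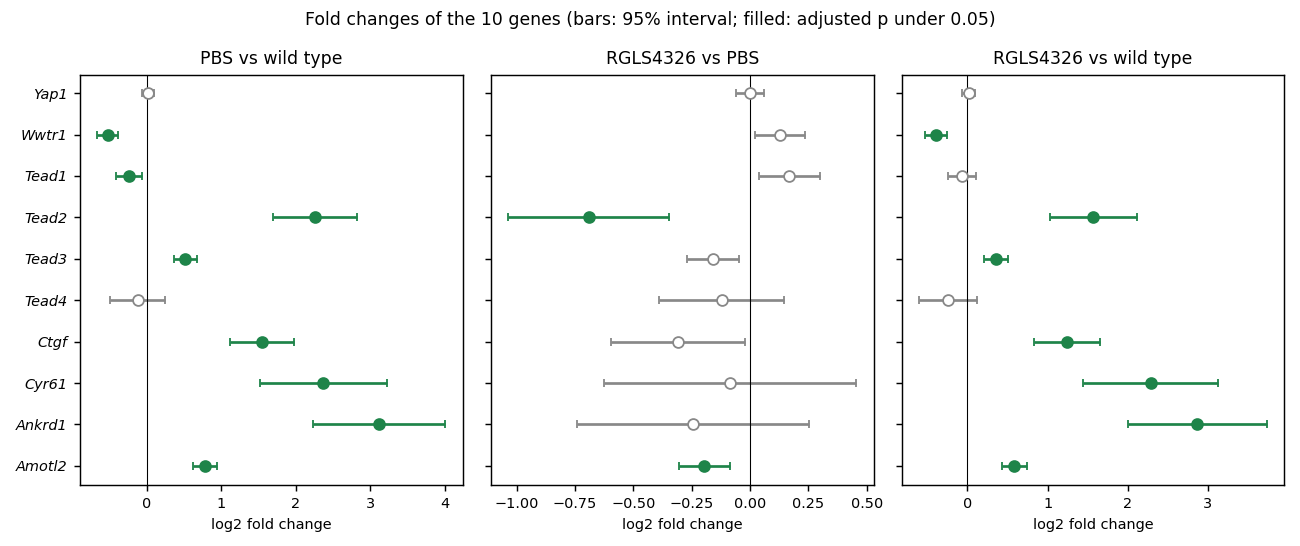
Log2 fold change (horizontal axis) of the 10 genes in the 3 comparisons, with bars of the 95% interval and filled points where the adjusted p is under 0.05. The 4 targets lie at 0.78 to 3.12 for PBS against wild type, while for RGLS4326 against PBS only Tead2 (−0.69) and Amotl2 (−0.20) are filled.

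Treated kidneys were also set against wild type, with the same wild-type mice as above, so the values are not independent of those for PBS. In this comparison 7 of the 10 genes were called, against 64.9% of all genes tested (32.5% higher and 32.4% lower). All 4 targets remained higher, by log2 fold changes of 1.24 for Ctgf (adjusted p = 1.46e-05), 2.29 for Cyr61 (adjusted p = 4.5e-05), 2.87 for Ankrd1 (adjusted p = 3.98e-06) and 0.59 for Amotl2 (adjusted p = 5.61e-07). Tead2 was 2.96-fold and Tead3 1.28-fold higher, and Wwtr1 was lower by a log2 fold change of −0.39 (adjusted p = 2.47e-05). Tead1 (−0.068) and Yap1 (0.017) were not called. Nor was Tead4 (−0.24), except without wild-type mouse 3, its lowest wild type (−0.40, adjusted p = 0.0489). The groups did not overlap for 3 of the 10 (Tead2, Ctgf and Amotl2), against 14.8% of all genes. Without mouse 9 they did not overlap for 6 (Wwtr1, Tead3 and Ankrd1 as well), against 33.4% of all genes. Within the second index series, which holds RGLS4326 mouse 9, none of the 10 was called, where 2.58% of all genes tested in that series were, and 47.3% and 18.1% were called in the first and the third series.

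RGLS4326 mouse 9 read like wild type for several of the 10 genes. Whether its label was exchanged was not tested, and values of the RGLS4326 group include it unless stated. It lay within the wild-type range for Ankrd1 (1.48 CPM), Cyr61 (26 CPM), Tead3 (22.4 CPM) and Wwtr1 (88.3 CPM), and above it for Tead2 (4.24 CPM), Ctgf (68.2 CPM) and Amotl2 (96.6 CPM). For Cyr61 that range reaches 26 CPM only through wild-type mouse 5 (43.6 CPM), as the other wild types read 18.1 to 19.1 CPM. Lcn2, which encodes the tubular injury marker Ngal, was at 2.76 CPM in this mouse, against a median of 354 CPM in its group. With this mouse left out, the numbers of the 10 genes called in the 3 comparisons were the same as with it (8, 2 and 7), against 74.7%, 8.14% and 67.5% of all genes.

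Levels can be compared between genes only per length, here CPM per kilobase of annotated exons. In wild type the order of the mean levels was Wwtr1 (19.3 ± 1.83, SD, n = 5), Ctgf (17.7 ± 3.04), Amotl2 (13.3 ± 0.809), Cyr61 (11.7 ± 5.55), Yap1 (10 ± 0.984), Tead1 (8.29 ± 0.918), Tead3 (3.42 ± 0.277), Ankrd1 (0.662 ± 0.194), Tead2 (0.513 ± 0.136) and Tead4 (0.445 ± 0.128). Neighbours overlapped from Wwtr1 down to Tead1 and from Ankrd1 down to Tead4. Tead1 and Tead3, and Tead3 and Ankrd1, did not overlap. In PBS the order began with Cyr61 (60.4 ± 26, n = 12), Ctgf (51.8 ± 15.1) and Amotl2 (22.9 ± 2.58), followed by Wwtr1 (13.4 ± 0.95) and Yap1 (10.2 ± 0.329). Cyr61, Ctgf and Amotl2 overlapped in turn, Amotl2 did not overlap Wwtr1, and Wwtr1 did not overlap Yap1. Thus the TAZ gene led the list in wild type, and 3 of the 4 targets led it in PBS. The other target, Ankrd1, rose from just above Tead2 to 5.73 ± 2.12, between Tead1 (7.04 ± 0.736) and Tead3 (4.90 ± 0.53), and overlapped both. Tead2 stood at 2.45 ± 0.967 and Tead4 at 0.408 ± 0.0946. The order with RGLS4326 was the same as with PBS, from 56.9 ± 28.0 (n = 14) for Cyr61 to 0.376 ± 0.0761 for Tead4.

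**Figure D3:**
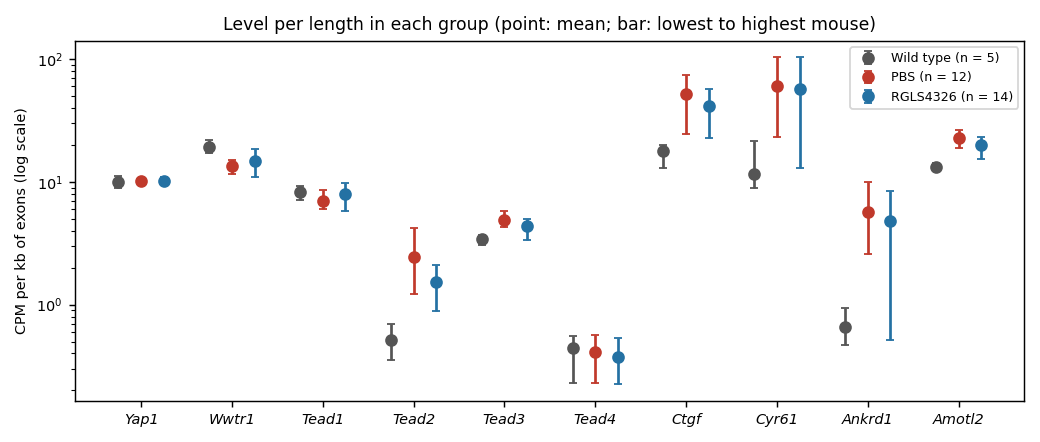
Level of each gene in CPM per kilobase of exons (log axis) in wild-type, PBS and RGLS4326 kidneys, as the group mean with a bar from the lowest to the highest mouse. Yap1 stays near 10 in all groups, while Ankrd1 goes from 0.662 in wild type to 5.73 in PBS and Tead4 is lowest throughout.

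The other genes of the pathway were taken from a list of 34 kinases, junction proteins and binding partners, of which 32 could be tested (Vgll1 and Vgll2 had at most 3 and 0 counts). In PBS against wild type 15 were higher, 11 lower and 6 did not pass the test, with a median log2 fold change of 0.095 and 81.2% called, against the 74.3% of all genes given above. Of the 11 core kinases and scaffolds, 6 were lower, 2 higher and 3 not called, against 36.6% of all genes lower and 37.7% higher. Stk3, which encodes the kinase MST2, fell from 23.4 ± 0.757 CPM (SD, n = 5) to 15.6 ± 1.30 CPM (SD, n = 12), a log2 fold change of −0.59 (SE 0.069, adjusted p = 2.61e-08). Mpp5, a polarity scaffold of the Crumbs complex, fell by more, from a median of 105 to one of 53.2 CPM (log2 fold change −0.87, adjusted p = 2.53e-08). Ajuba and Wtip encode LIM proteins that bind LATS and restrain it. Ajuba rose from 38.1 ± 2.80 to 83.6 ± 11.2 CPM (log2 fold change 1.13, adjusted p = 1.57e-08), and Wtip from 19.5 ± 2.70 to 37.3 ± 6.05 CPM (log2 fold change 0.94, adjusted p = 2.92e-08). These 4 genes were picked for the smallest p-values of the list, and none of them overlapped between groups, which largely follows from that choice. The groups did not overlap for 16 of the 32 genes tested in the list and for 42.2% of all genes. The binders of YAP or TEAD were all called, 5 of the 6 tested higher and Amot lower, beside the same shares of all genes.

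In RGLS4326 against PBS 2 of the 32 were higher, 6 lower and 24 not called, that is 25% called against 15.8% of all genes, and none exceeded 0.5 on the log2 scale. Mpp5 rose to a median of 69.1 CPM, a log2 fold change of 0.36 (SE 0.078, adjusted p = 0.00949). Wwc1 (KIBRA, an activator of LATS) fell from a median of 339 to one of 301 CPM (log2 fold change −0.21, adjusted p = 0.0141). Llgl1, a basolateral polarity gene, was also lower (−0.24, adjusted p = 0.0147). Leaving out single mice gave 4 called genes without PBS mouse 10, 5 without PBS mouse 3 or 5, and 14 without PBS mouse 4. Of all genes, 4.08%, 6.07%, 5.21% and 25.5% were called in those fits without PBS mice 10, 3, 5 and 4.

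A second list held 18 further YAP or TAZ targets from other cell systems, of which 17 could be tested (Foxf2 had at most 6 counts). Lats2 and Ptpn14 are in both lists. In PBS 9 were higher, 4 lower and 4 not called, that is 76.5% called against 74.3% of all genes, with a median log2 fold change of 0.45. Myof, a membrane repair protein, rose from 25.9 ± 5.16 to 104 ± 28.3 CPM (log2 fold change 2.01, SE 0.226, adjusted p = 1.6e-08). Ccdc80, a matrix protein, rose from 5.95 ± 0.56 to 38.5 ± 11.7 CPM (log2 fold change 2.70, adjusted p = 2.38e-08). Ptpn14, a phosphatase that binds YAP, rose by 0.97 (adjusted p = 9.06e-07). Dock5, an activator of Rac, went down from 61.4 ± 1.67 to 36.9 ± 4.64 CPM (log2 fold change −0.73, adjusted p = 7.56e-08).

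With RGLS4326, 2 of the 17 were higher and 3 lower than with PBS, that is 29.4% called against 15.8% of all genes. Ptpn14 fell by 0.36 on the log2 scale (adjusted p = 0.0247), Myof by 0.44 (adjusted p = 0.0418) and Arhgef17, a guanine nucleotide exchange factor, by 0.23 (adjusted p = 0.0267). Nt5e, an ecto-nucleotidase, rose by 0.29 (adjusted p = 0.0407) and Dock5 by 0.21 (adjusted p = 0.0469). Leaving out single mice ended some of these calls while the values kept their direction. The call of Ptpn14 was lost without PBS mouse 10 (−0.31, adjusted p = 0.0599), and that of Arhgef17 without PBS mouse 2, 5 or 10 (−0.20 to −0.21, adjusted p = 0.0522, 0.0552 and 0.0602). Myof was lost in 14 of the 31 fits that left out a mouse (−0.48 to −0.38 over all of them), Nt5e in 11 (0.26 to 0.34) and Dock5 in 20 (0.17 to 0.24). The number called was 0 without PBS mouse 10, 1 without PBS mouse 2 or 5, 2 without PBS mouse 9 or 11 or RGLS4326 mouse 3, 6, 8, 10 or 13, 3 without PBS mouse 3 or RGLS4326 mouse 1 or 9, and 8 without RGLS4326 mouse 2. The share of all genes called moved in the same fits, to 4.08% without PBS mouse 10, 7.47% and 5.21% without PBS mouse 2 or 5, 5.55% to 11% in the fits with 2 called, 6.07% to 16.6% in those with 3, and 26.4% without RGLS4326 mouse 2, against 15.8% with all mice.

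**Figure D4:**
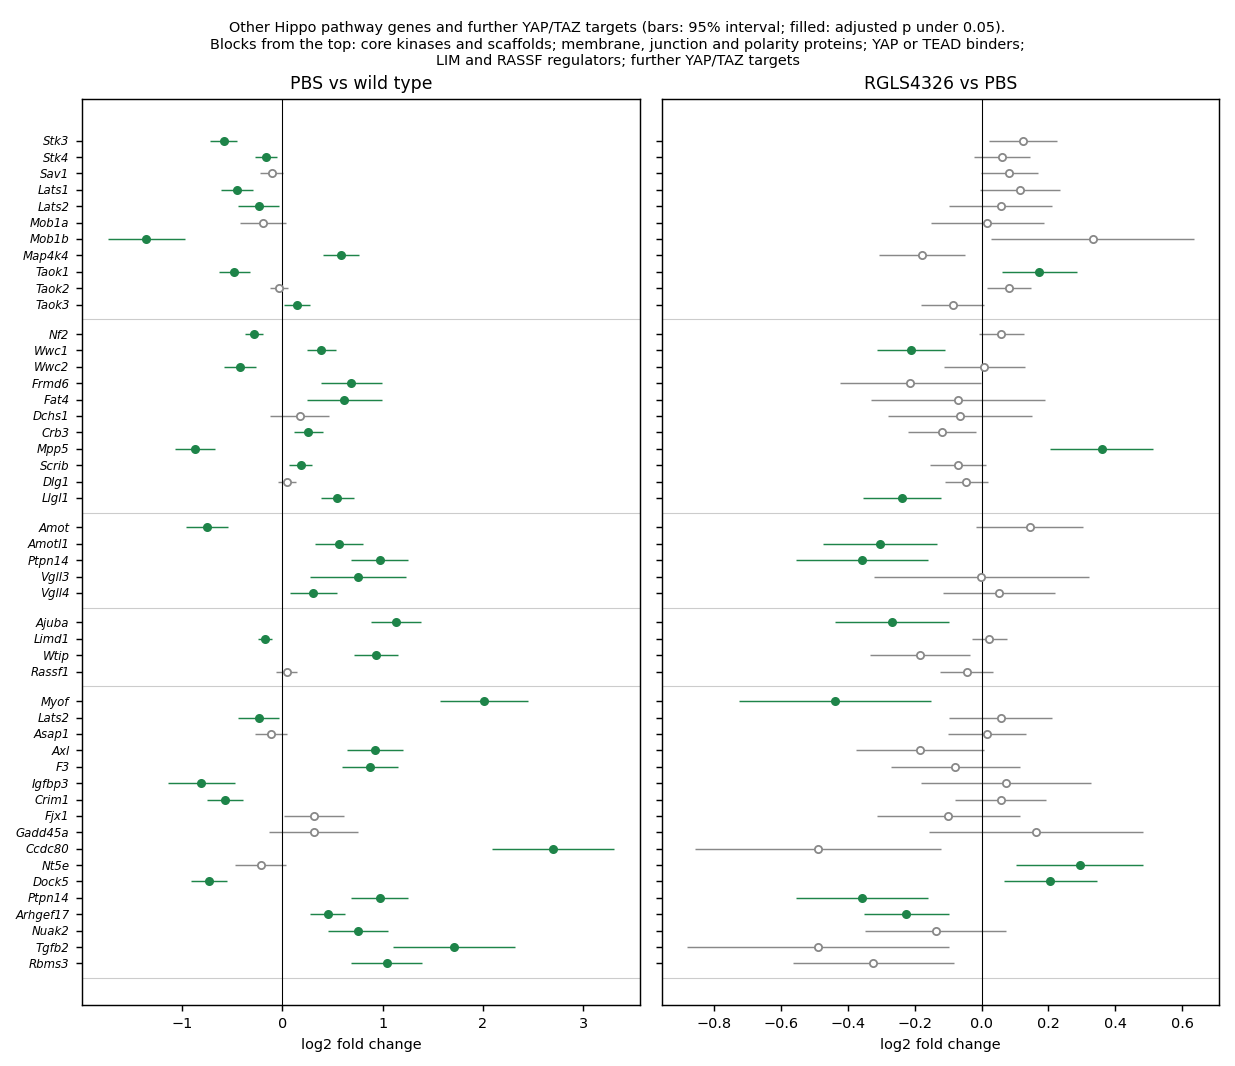
Log2 fold change (horizontal axis) of the other Hippo pathway genes tested (1 is not shown) and the further YAP or TAZ targets tested, for PBS against wild type (left) and RGLS4326 against PBS (right, on a narrower scale), with bars of the 95% interval and filled points where the adjusted p is under 0.05. Stk3 lies at −0.59, Ajuba at 1.13, Myof at 2.01 and Ccdc80 at 2.70 on the left, and no called gene passes 0.5 in size on the right.

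Markers of cell types and of injury differed between the groups as well. The counts of called markers below stand against 74.3% of all genes in PBS against wild type (37.7% higher and 36.6% lower). In RGLS4326 against PBS 15.8% of all genes were called. Summed over 10 markers of fibroblasts and myofibroblasts, levels ran from 188 to 260 CPM in wild type, 615 to 1310 in PBS and 302 to 1380 with RGLS4326, and 8 of the 10 markers were called higher in PBS and none in RGLS4326 against PBS. All 6 macrophage markers (153 to 163, 308 to 509 and 148 to 595 CPM) and all 6 lymphocyte markers (4.69 to 8.97, 25.7 to 37.7 and 6.44 to 36.8 CPM) were higher in PBS, and none was called with treatment. The 4 collecting duct markers went from 317 to 674 CPM in wild type to 1010 to 2430 CPM in PBS, all 4 higher, and 616 to 1610 CPM with RGLS4326, all 4 lower than PBS. All 6 proximal tubule markers were lower in PBS (4320 to 8760 CPM against 14400 to 15500 CPM), and 2 of them, Cubn and Slc22a6, were higher with RGLS4326. The 4 tubular injury markers summed to 13.7 to 38.1, 327 to 1380 and 23.6 to 824 CPM. All 4 were called higher in PBS and none in RGLS4326 against PBS. Of 5 endothelial markers 2 were lower in PBS and of 4 podocyte markers 1 was higher, and of the thick ascending limb markers Umod and Slc12a1 1 was lower. Mouse 9 was the highest treated mouse for the proximal tubule sum and the lowest for the fibroblast, macrophage, lymphocyte, collecting duct and injury sums. Without it, RGLS4326 sums ran from 555 to 1380 CPM for fibroblasts, 224 to 595 for macrophages, 25.1 to 36.8 for lymphocytes, 978 to 1610 for collecting duct, 5680 to 9930 for proximal tubule and 225 to 824 for tubular injury. No list had a marker at 0 in a whole group. The part of these cell types in the results for the 10 genes was not tested, and in whole kidneys fewer cells of a type and less RNA per cell cannot be told apart.

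Relations between mice were computed on log2(CPM + 1) within the 12 PBS and within the 14 RGLS4326 mice separately: 6 pairs of the targets, Yap1 with Wwtr1, and each of the 10 genes with Lcn2 and with the mean of the fibroblast markers, 54 in all. In 15 of the 54 the Benjamini-Hochberg adjusted p was under 0.05 for both Pearson's r and Spearman's rho (two-sided permutation test, 100000 resamples). Tead2 with Lcn2 gave the highest r in PBS, 0.945 (p = 1e-05, the smallest the resamples can give, adjusted p = 0.00054, rho 0.937 with p = 6e-05 and adjusted p = 0.00162, permutation test, n = 12). Without the 2 mice farthest from the median of Lcn2 it was 0.933. In RGLS4326 mice the same pair gave 0.728 (p = 9e-05, adjusted p = 0.00198, rho 0.798 with p = 0.00095 and adjusted p = 0.0116, permutation test, n = 14), 0.741 without the 2 farthest and 0.796 without mouse 9.

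Ankrd1 followed Lcn2 in PBS with r of 0.891 (p = 0.00011, adjusted p = 0.00198, rho 0.93 with p = 5e-05 and adjusted p = 0.00162, permutation test) and 0.855 without the 2 farthest mice. In RGLS4326 mice r was 0.838 (p = 0.00187, adjusted p = 0.00777, rho 0.657 with p = 0.0132 and adjusted p = 0.0444, permutation test), 0.796 without the 2 farthest, and 0.554, no longer past the threshold, without mouse 9. Ctgf with Lcn2 gave 0.802 in PBS (p = 0.00135, adjusted p = 0.00663, rho 0.818 with p = 0.0017 and adjusted p = 0.0153, permutation test) and 0.736 in RGLS4326 mice (p = 0.00153, adjusted p = 0.00688, rho 0.807 with p = 0.00087 and adjusted p = 0.0116, permutation test). Tead3 with Lcn2 gave 0.854 in PBS (p = 0.00067, adjusted p = 0.00517, rho 0.804 with p = 0.0022 and adjusted p = 0.017, permutation test) and 0.867 in RGLS4326 mice (p = 0.00033, adjusted p = 0.00297, rho 0.754 with p = 0.00274 and adjusted p = 0.0185, permutation test), but 0.733 and 0.681 without the 2 farthest, neither past the threshold. Thus, within a group, mice with more of the injury marker had more Tead2, Ankrd1, Ctgf and Tead3 mRNA.

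Among the targets, Ctgf and Ankrd1 were related in both groups, with r of 0.781 in PBS (p = 0.00267, adjusted p = 0.0103, rho 0.762 with p = 0.00559 and adjusted p = 0.0274, permutation test) and 0.853 in RGLS4326 mice (p = 0.0003, adjusted p = 0.00297, rho 0.793 with p = 0.00107 and adjusted p = 0.0116, permutation test). The remaining 5 were Cyr61 with Ankrd1 (r of 0.75) and Yap1 with Wwtr1 (0.712) in PBS, and Amotl2 with Ctgf (0.638), Ankrd1 (0.836) and Lcn2 (0.798) in RGLS4326 mice. The last 3 rest on mouse 9: without it r was 0.404, 0.623 and 0.426, none past both thresholds. Ctgf with Ankrd1 was 0.797 without it, Ctgf with Lcn2 0.675 and Tead3 with Lcn2 0.703. Without the 2 farthest mice 4 of the 15 stayed past both thresholds (Lcn2 with Tead2 and Ankrd1 in PBS, and with Ctgf and Ankrd1 in RGLS4326 mice), and without mouse 9 the number was 10. Relations with the fibroblast markers passed by 1 of the measures at most. In RGLS4326 mice Pearson's r was 0.785 for Ctgf (p = 0.00104, adjusted p = 0.00562, permutation test) and 0.77 for Tead2 (p = 0.00033, adjusted p = 0.00297, permutation test), with rho of 0.587 (p = 0.0302, adjusted p = 0.0745) and 0.604 (p = 0.0251, adjusted p = 0.0677) in the same permutation test. Without mouse 9 these r were 0.669 and 0.696, and without the 2 farthest mice 0.604 and 0.646. Ankrd1 (r of 0.704, p = 0.00831, adjusted p = 0.0249, rho 0.275 with p = 0.34 and adjusted p = 0.475, permutation test) and Tead3 (0.664, p = 0.0163, adjusted p = 0.04, rho 0.305 with p = 0.286 and adjusted p = 0.429, permutation test) fell to r of 0.346 and 0.277 without mouse 9, and to 0.308 and 0.139 without the 2 farthest. In PBS Amotl2 passed by rho alone, at 0.755 (p = 0.0061, adjusted p = 0.0274, permutation test), with r of 0.637 (p = 0.0257, adjusted p = 0.0555, permutation test) and 0.77 without the 2 farthest.

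**Figure D5:**
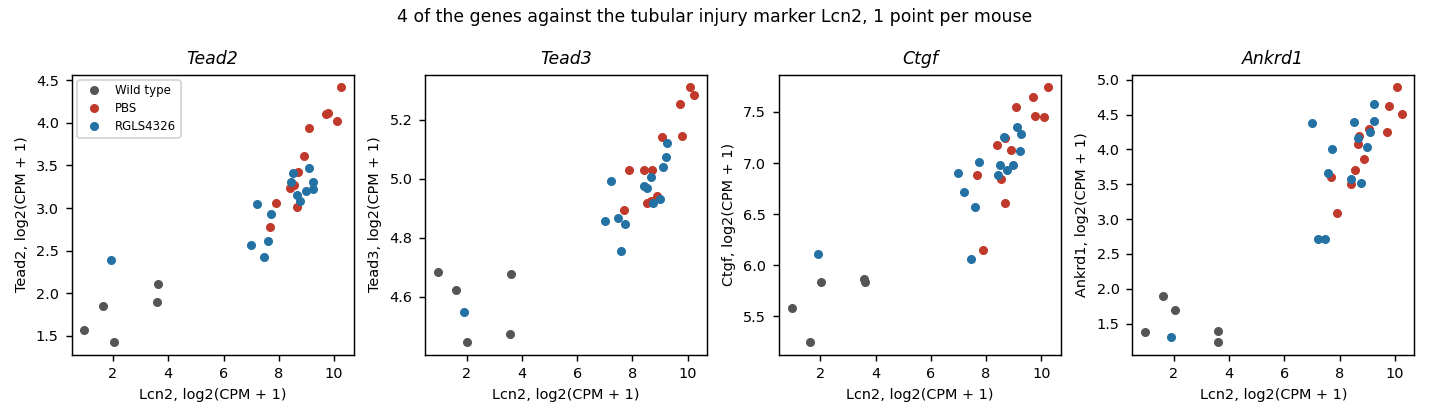
Tead2, Tead3, Ctgf and Ankrd1 against the tubular injury marker Lcn2, both axes in log2(CPM + 1), 1 point per mouse, coloured by group. Within PBS the points rise together with Pearson's r of 0.945 for Tead2, 0.854 for Tead3, 0.802 for Ctgf and 0.891 for Ankrd1, and the single RGLS4326 point at the left of each panel is mouse 9.

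For each of the 10 genes the 2 genes most like it were taken by Spearman's rho over the 26 cystic mice after each group's mean was subtracted, as a description with no test. The values compared share each mouse's library, depth and cell makeup. Tead2 was most like Evl (0.96), a regulator of actin filaments, and Crip1 (0.956). Cyr61 was most like the immediate-early genes Btg2 (0.943) and Egr2 (0.928). Ankrd1 was most like Rhob (0.924) and Tsc22d1 (0.915), Ctgf most like Apobec3 (0.927) and Sbno2 (0.923), and Tead3 most like Ell (0.915) and Ccdc102a (0.911). Wwtr1 varied with Sik2 (0.853) and Ago2 (0.832), the latter the Argonaute protein that carries microRNAs, and Tead1 with Thumpd3 (0.841) and Daam1 (0.827). Likeness was lower for Amotl2 (Map1b at 0.797 and Zfp516 at 0.787), for Yap1 (Ttc9c at 0.726 and Pak2 at 0.724) and for Tead4 (Ppap2b at 0.721 and 4931406P16Rik at 0.691). Over the 25 other cystic mice, without mouse 9, rho of the 20 pairs ran from 0.695 to 0.97 and fell by at most 0.029, and 9 of the 20 were still among the 2 most alike. None of the 10 genes appeared among the genes most like another of them.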

How the data were processed

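The authors prepared stranded poly(A) libraries from kidneys, trimmed reads with Trim Galore, mapped them with STAR to GRCm38 and counted them with HTSeq 0.6.1, per the labels and the methods. The strand setting of the counting was not given in the sources used here. The values they deposited are raw counts with no normalization. Rows that name no gene held 26.9 to 31.1% of the counted alignments and were left out.

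From these counts, edgeR 4.0.16 (R 4.3.3) with its default expression filter, TMM scaling and 1 coefficient per group was fitted to all 31 mice without covariates. Called genes had a Benjamini-Hochberg adjusted p under 0.05. Standard errors are the log2 fold change over the square root of F, and are approximate. The fit was tested on simulated counts. CPM used TMM-scaled libraries, and relations used log2(CPM + 1). Totals of 14892524 to 27459962 counts per mouse stand behind the values, with the fewest reads for Tead2, Tead4 and Ankrd1.

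The 10 genes, the lists and the tests were chosen with earlier results of these data known. Named beyond the 10 genes are the 4 genes of smallest p in each list and comparison, the 2 genes most like each of the 10, and Lcn2, except that 1 gene of the lists is counted but not reported here by name. Outside this rule, and with their values seen, Taok1, Mob1b, Amot and the marker genes Cubn, Slc22a6, Umod and Slc12a1 are also named, and Cd37 for its overlap with Tead2. So are Gm20416 and Gm15270 for their overlaps, Vgll1, Vgll2 and Foxf2 for their low counts, Lats2 as shared by both lists, and the striated muscle markers. Alternatives were the size threshold, the filter, DESeq2 1.42.0, only the groups compared, index series, the replicate number as a block, each mouse left out, a pseudocount of 0.1 and, chosen after seeing the data, wild-type mice 3 and 4 as 1 and the overlaps, marker sums and likeness without RGLS4326 mouse 9. Those 2 wild types were the closest pair (chi-square per gene 2.84 over 10690 genes, where sampling noise gives about 1), and they were kept as 2 mice. Relations were computed in Python 3.11.15 with scipy 1.17.1 and pandas 2.3.3, and figures drawn with matplotlib 3.10.9. Positions and 3′UTRs came from the GENCODE annotation of GRCm38, promoters and the miRNA from RefSeq on GRCm38.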

Additional observations from a re-analysis of the deposited data

Results flagged for a closer look

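Cyr61 read 43.6 CPM in wild-type mouse 5, while the other 4 wild-type mice read 18.1 to 19.1 CPM. The gap to the nearest mouse took up more of the group's range than Dixon's 95% critical value for 5 samples allows. It was 1 of 11 measures tested for an outlying wild-type mouse, and chance alone gives about 1 in 20.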

How the results depend on the processing

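The directions of the 8 called differences of PBS against wild type held in all alternatives and in all fits that left out a mouse. Their number was 8, with 7 to 8 over the fits that left out a mouse 7 within series 1, with the size threshold or with wild-type mice 3 and 4 as 1, 9 within series 2, where Yap1 was called too, and 5 within index series 3, where wild type is 1 mouse. Of all genes, 74.3% were called in this comparison, but 51.9%, 45.5% and 38.1% within series 1, 2 and 3, and 42.4% with the size threshold. For RGLS4326 against PBS the count of 2 became 3 with DESeq2 or a minimum mean of 1 CPM (Tead3 added, 20.6% and 17.5% of all genes called), 1 with the size threshold, 0 within index series 1, 2 and 3 and 1 to 5 over the fits that left out a mouse, and Tead2 and Amotl2 stayed negative in each. For RGLS4326 against wild type the count of 7 became 5 with the size threshold (31.5% of all genes), 0 within index series 2 (2.58%) and 7 to 8 with a mouse left out. Of the other Hippo genes, the 26 called in PBS became 14 with the size threshold, 17 within series 2, 10 within series 3 (of the 32, beside the shares of all genes above) and 23 to 26 with a mouse left out. The 8 called with treatment became 0 with the size threshold, 0 within series 1, 2 and 3, and 4 to 14 with a mouse left out. Of the further targets, the 5 called with treatment became 0 with the size threshold, 2 with no filter (8.73% of all genes), 2 with only the compared groups (10.1%), 0 within series 1, 2 and 3, and 0 to 8 with a mouse left out, and the 13 called in PBS ran from 10 (within series 2) to 14 (with the replicate block), with 11 for the size threshold and within series 3. The series hold fewer mice, and beyond that the cause was not tested.

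With the replicate number as a block the calls of RGLS4326 against PBS became 0 of the 10 genes, 2 of the other Hippo genes and 1 of the further targets, and those over all genes fell from 15.8% to 2%. Same-numbered mice are different animals, and their deviations were unrelated (mean r −0.085 over 12 pairs, lowest −0.47 and highest 0.51), so the block was not used.

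Among the fold changes of the 10 genes, direction turned only for ones that were not called. Yap1 in PBS against wild type was −0.10 within series 1, −0.042 within series 3, −0.00084 with the replicate block, −0.017 with wild-type mice 3 and 4 as 1, and −0.017 to 0.063 with a mouse left out. For RGLS4326 against PBS Yap1 was 0.013 within series 3, 0.0027 with the replicate block and −0.011 to 0.0059 with a mouse left out. Against wild type it was −0.12 within series 1, −0.029 within series 3, −0.018 with mice 3 and 4 as 1 and −0.018 to 0.061 with a mouse left out. Tead1 for RGLS4326 against wild type was 0.13 within series 1. Tead4 within series 2 was 0.17 for PBS and 0.042 for RGLS4326 against wild type. For RGLS4326 against PBS, Cyr61 was 0.042 within series 3 and −0.18 to 0.013 with a mouse left out, and Ankrd1 was 0.24 within series 1.

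Of the relations between mice, 15 became 4 without the 2 farthest mice and 10 without RGLS4326 mouse 9. Without the 2 farthest mice Pearson's r turned to 0.206 for Tead1 with Lcn2, 0.317 for Yap1 and 0.401 for Wwtr1 with the fibroblast markers in PBS, and to 0.106 for Yap1 and −0.121 for Amotl2 with the fibroblast markers in RGLS4326 mice. Without mouse 9 it turned to 0.0648 for Tead4 with Lcn2 and −0.0342 for Amotl2 with the fibroblast markers. Tead4, Tead2 and Ankrd1 had the fewest reads of the 10 genes, as few as 14, 28 and 23 in a mouse.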
